A study of Mus musculus with 12 samples.

Results

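Apoe, Vldlr and Pla2g7 are 3 of the 11015 genes measured in mouse aortic endothelial cells labelled as lacking the ETS transcription factors Ets1, Ets2 or both, or neither. They were taken by symbol, as every probe set whose platform annotation names exactly 1 of them, which gave 1 probe set for Apoe, 4 for Vldlr and 1 for Pla2g7. No probe set named a member together with another gene. Cells from the aorta of mice aged 4 weeks were cultured, infected with a lentivirus and profiled on Affymetrix arrays. The arrays labelled DKO came from Ets1-/- Ets2fl/fl cells with a lentivirus carrying eGFP and Cre. Ets2KO cells were Ets1+/+ Ets2fl/fl and received the same Cre virus. Ets1KO cells were Ets1-/- Ets2fl/fl and received a virus with eGFP but no Cre, so their Ets2 was floxed and not deleted. WT cells were Ets1+/+ Ets2+/+ with the eGFP virus. All groups therefore carried a lentivirus and eGFP, and Cre cannot be told apart from Ets2 loss. The share of infected cells is not stated in the sources used here, and the titles' biological replicates are not tied to separate animals, so p-values may measure technical spread.

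Apolipoprotein E (Apoe) is a protein of circulating lipoproteins and the ligand through which remnant particles are taken up by receptors of the LDL receptor family. The very low density lipoprotein receptor (Vldlr) is a member of that family that binds Apoe-containing particles and, on endothelium and in muscle and fat, takes part in delivering their triglycerides. Pla2g7 encodes the lipoprotein-associated phospholipase A2, also called plasma platelet-activating factor acetylhydrolase, which travels on lipoproteins and cleaves platelet-activating factor and oxidised phospholipids. Macrophages are a well-known source of Apoe and Pla2g7.

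On the mouse build GRCm38.p6, Apoe (gene ID 11816) spans 19696244 to 19701310 on chromosome 7, Vldlr (gene ID 22359) spans 27216480 to 27254231 on chromosome 19 and Pla2g7 (gene ID 27226) spans 43567994 to 43612202 on chromosome 17. ETS factors recognise DNA around a GGAA core, so the 250 bases before the most upstream start that the RefSeq promoter table lists for each member are shown, 5′ to 3′ on the gene's strand, with GGAA on either strand (TTCC on the strand shown) in capitals. The table lists 3 starts for Apoe, 2 for Vldlr and 1 for Pla2g7. These starts are not the ends of the gene spans above. The Apoe and Pla2g7 windows lie wholly inside those spans, and the last bases of the Vldlr window lie inside its span.
Apoe, chr7:19699189-19699438, minus strand: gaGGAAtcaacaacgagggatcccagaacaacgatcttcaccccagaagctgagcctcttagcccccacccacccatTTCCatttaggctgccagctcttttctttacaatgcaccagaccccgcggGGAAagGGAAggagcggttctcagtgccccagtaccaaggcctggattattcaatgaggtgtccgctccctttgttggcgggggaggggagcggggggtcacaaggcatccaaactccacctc
Vldlr, chr19:27216234-27216483, plus strand: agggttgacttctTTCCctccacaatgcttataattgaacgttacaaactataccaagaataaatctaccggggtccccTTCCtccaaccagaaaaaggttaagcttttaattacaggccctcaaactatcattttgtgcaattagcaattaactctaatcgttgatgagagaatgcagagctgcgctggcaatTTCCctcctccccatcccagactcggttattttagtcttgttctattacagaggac
Pla2g7, chr17:43568201-43568450, plus strand: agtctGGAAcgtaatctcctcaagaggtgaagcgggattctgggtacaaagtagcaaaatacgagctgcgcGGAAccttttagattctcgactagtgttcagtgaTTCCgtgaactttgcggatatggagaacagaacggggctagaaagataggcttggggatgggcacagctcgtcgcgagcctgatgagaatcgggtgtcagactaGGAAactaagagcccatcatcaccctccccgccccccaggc
The core occurred 4 times before the listed Apoe start, 3 times before the listed Vldlr start and 4 times before the listed Pla2g7 start. Among the equally long windows of 27025 genes listed there, 93.4% hold at least 1 match, with a median of 3. The longer motif CCGGAAGT, searched on both strands and containing the core, was in none of the 3 windows and is in 2.92% of all windows. These are matches of letters in short windows and say nothing about binding.

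Facts of the whole series bear on every value below. In 20521 of 20523 probe sets the third DKO column holds the average of the other DKO columns (tolerance 1e-05), so it was left out and 11 arrays were used, of which 2 are labelled DKO and 3 belong to each other group. Both arrays labelled DKO had low medians, 8.2998 and 8.293, against 9.05 to 9.15 for the other arrays, so comparisons with DKO are given relative to array medians (the median over all probe sets of an array subtracted) and also as deposited, while the other comparisons are given as deposited. The median gene gave a DKO minus WT difference of 0.18 after subtracting array medians and -0.61 as deposited. Of the 4 Ets1 probe sets, all were lower in Ets1KO than in WT (differences of -0.50, -0.70, -1.22 and -1.31). All 4 were also lower than WT in Ets2KO, labelled Ets1+/+ (-0.54, -0.64, -0.27 and -0.41 in the same order). In the arrays labelled DKO 3 of 4 stood above WT relative to array medians (-1.20, 0.18, 0.78 and 0.90) and 1 of 4 as deposited (-2.00, -0.61, -0.02 and 0.10). The Ets2 probe sets differed from WT by 0.98 and 0.59 in the arrays labelled DKO relative to array medians (0.18 and -0.20 as deposited), and by -0.44 and -0.18 in Ets2KO. Relative to array medians 3 of 4 Ets1 and both Ets2 probe sets go against the DKO label, and 1 Ets1 probe set goes with it. As deposited fewer of them stand above WT. These arrays are therefore called by their label here, and the sources used here do not say whether any of these probe sets lies in the deleted part. Xist, transcribed from the inactive X chromosome, read 12.98 and 13.19 in the arrays labelled DKO, 7.34 and 7.44 in Ets2KO replicates 3 and 1 with replicate 2 close to them, 13.07 to 13.52 in Ets1KO and 7.26, 13.18 and 11.45 in WT. The Y-linked Eif2s3y was above 9 only in the 3 Ets2KO arrays and in WT replicate 1, so the sexes are not balanced between the groups. Of 20 endothelial markers 5 were measured (Kdr, Flt1, Egfl7, Eng and Cd34), while Pecam1, Cdh5 and Vwf were not analysed here. The mean of these 5 relative to array medians was -1.17 to -0.80 in DKO, -0.53 to 0.13 in Ets2KO, -1.49 to -1.26 in Ets1KO and -0.98 to 0.40 in WT. These genes did not move alike. As deposited, Cd34 was lower in every Ets1KO array than in every WT array, whereas Kdr, Flt1, Egfl7 and Eng overlapped between these groups. Flt1 read 8.58, 7.88 and 7.69 in Ets1KO and 8.44, 7.69 and 7.44 in WT. In such bulk samples fewer cells of a type and less RNA per cell cannot be told apart.

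The members were chosen from these data. Apoe was chosen for its difference between Ets2KO and WT and Vldlr for its difference between DKO and WT, and the comparison that chose Pla2g7 is not stated in the sources used here. Their levels are therefore described, and only Apoe between DKO and Ets1KO and Vldlr between Ets2KO and Ets1KO were tested. Those differences and their exact permutation tests use no array of the choosing comparison. Their SE, intervals and limma p-values are not free of it, since limma estimated a shared spread from the arrays of all groups.

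Apoe read high in Ets2KO cells and low in every array of the other groups but 1. The deposited log2 values were 4.69 and 4.63 in the arrays labelled DKO, 10.998, 11.56 and 12.92 in Ets2KO, 5.50, 5.71 and 6.03 in Ets1KO and 8.81, 6.06 and 6.203 in WT. WT replicate 1 was the highest WT array by more than 2 log2 units, and it lay below all Ets2KO arrays. Group means were 4.66 ± 0.05 in DKO (SD, n = 2), 11.83 ± 0.99 in Ets2KO, 5.75 ± 0.27 in Ets1KO and 7.02 ± 1.55 in WT (SD, n = 3 each). The order was Ets2KO, WT, Ets1KO, DKO, and WT and Ets1KO were closer than the SD of WT. The values that chose the gene gave a difference between Ets2KO and WT of 4.80 (SE 0.72), a 28.0-fold higher level. Between Ets2KO and Ets1KO the difference was 6.08. Apoe was lower in Ets1KO than in WT by a difference of -1.28 with groups that did not overlap, though the highest Ets1KO array (6.03) and the lowest WT array (6.06) nearly met. Without WT replicate 1 that difference was -0.38. The arrays labelled DKO lay below Ets2KO by 6.40 relative to array medians (difference -6.40, SE 0.81) and by 7.17 as deposited (difference -7.17).

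The comparison of DKO with Ets1KO sets the arrays labelled DKO beside those with the same labelled Ets1 genotype and no Cre. Relative to array medians Apoe was -3.61 and -3.67 in the arrays labelled DKO and -3.63, -3.43 and -3.12 in Ets1KO, so the groups overlapped. The difference was -0.25 (SE 0.81, 95% interval -2.08 to 1.59, limma adjusted p = 0.841, exact permutation p = 0.3). As deposited it was -1.09 (95% interval -2.90 to 0.72, limma adjusted p = 0.298, exact permutation p = 0.1, the smallest that 2 against 3 arrays allow). The Ets2KO difference from WT (4.80, SE 0.72) chose the gene, so the intervals were not set against it. No detection call comes with the values, so whether the low readings lie above background is unknown.

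**Figure D1:**
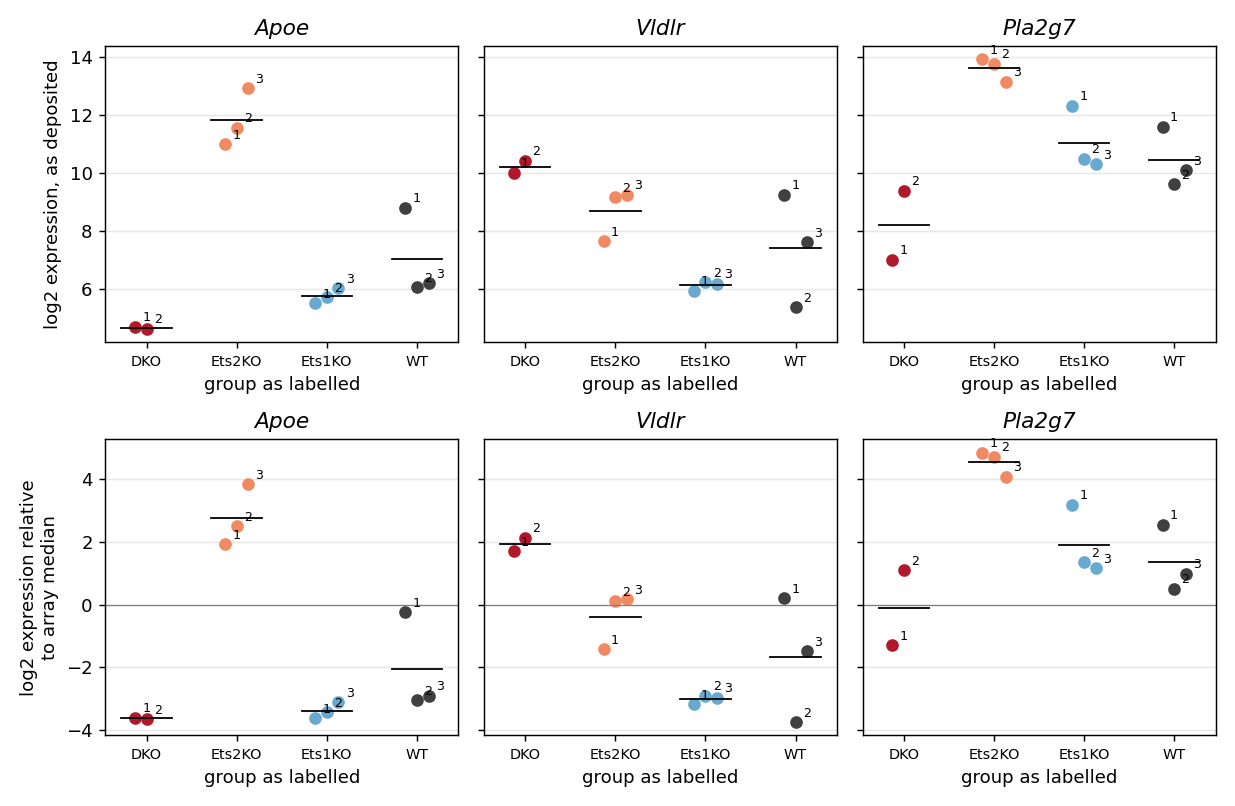
Log2 expression of the brightest probe set of each member in every array, as deposited (top) and relative to the array median (bottom); points are arrays numbered by replicate and lines are group means. Apoe and Pla2g7 are highest in the 3 Ets2KO arrays, Vldlr is highest in the 2 arrays labelled DKO, and WT replicate 1 is the highest WT array for all 3 genes.

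Vldlr followed another pattern, with its highest values in the arrays labelled DKO. At its brightest probe set (1434465_x_at) the deposited log2 values were 10.005 and 10.43 in DKO, 7.64, 9.16 and 9.25 in Ets2KO, 5.94, 6.23 and 6.18 in Ets1KO and 9.25, 5.37 and 7.62 in WT. The WT arrays covered the whole span from below the Ets1KO arrays to the top of the Ets2KO arrays. Group means were 10.22 ± 0.30 in DKO (SD, n = 2), 8.68 ± 0.90 in Ets2KO, 6.12 ± 0.15 in Ets1KO and 7.41 ± 1.95 in WT (SD, n = 3 each). In that order of means, DKO, Ets2KO, WT, Ets1KO, WT did not stand apart from Ets2KO or from Ets1KO beyond its own spread. The values that chose the gene, DKO against WT, gave a difference of 3.60 relative to array medians (SE 0.94, 12.1-fold) and 2.80 as deposited (6.99-fold). The same arrays stood above Ets1KO by 4.94 relative to array medians and 4.10 as deposited, and above Ets2KO by 2.30 and 1.53. At this probe set neither group overlapped with DKO on either scale.

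The comparison of Ets2KO with Ets1KO was open to a test. Vldlr was higher in all 3 Ets2KO arrays than in all 3 Ets1KO arrays, by 2.57 (SE 0.83, 95% interval 0.68 to 4.45, 5.92-fold), but this did not pass over all genes (limma adjusted p = 0.123, exact permutation p = 0.1, the smallest that 3 against 3 arrays allow). With only the arrays of these groups in the fit, and so without the wide WT spread, the adjusted p by limma was 0.0390, and without WT replicate 2 it was 0.0474. With high or low Xist as a covariate the difference was -0.19 (limma adjusted p = 0.986), a fit in which only the WT arrays separate Xist from group. Against WT the Ets2KO mean differed by 1.27 and the Ets1KO mean by -1.29, with overlapping groups in both. Without WT replicate 1 these were 2.19 and -0.37, and without WT replicate 2 they were 0.25 and -2.32.

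The 4 Vldlr probe sets moved together, with Pearson correlations of 0.973 to 0.990 over the 11 arrays relative to array medians. For DKO against WT the other 3 gave differences of 3.12 (1417900_a_at), 3.15 (1435893_at) and 2.20 (1438258_at) relative to array medians and 2.33, 2.35 and 1.41 as deposited. Only 1438258_at had DKO and WT arrays that overlapped as deposited (7.66 and 8.33 in DKO, 7.75, 5.47 and 6.55 in WT). It was also the only one with overlapping DKO and Ets2KO arrays as deposited (6.78, 7.91 and 7.35 in Ets2KO, difference 0.65). For Ets2KO against Ets1KO the other 3 gave 2.83, 2.58 and 1.29, none with overlapping groups. The suffix of 1434465_x_at marks a probe set that may bind related transcripts. At each of the 4 probe sets both arrays labelled DKO lay above every Ets1KO array, while the order of the other arrays differed between probe sets.

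**Figure D2:**
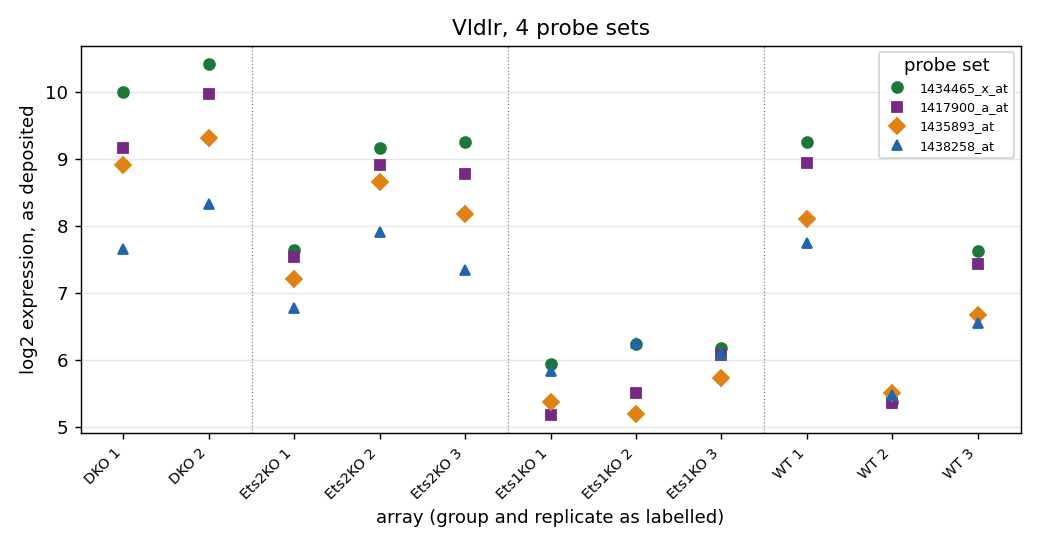
Deposited log2 expression of the 4 Vldlr probe sets (symbols) in each of the 11 arrays (horizontal axis, dotted lines between groups). All 4 are low in the 3 Ets1KO arrays and in WT replicate 2, and 3 of them are highest in the 2 arrays labelled DKO, with 1438258_at highest in DKO replicate 2.

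Pla2g7 was highest in Ets2KO and lowest in the arrays labelled DKO. Its deposited log2 values were 7.005 and 9.39 in DKO, 13.92, 13.77 and 13.15 in Ets2KO, 12.32, 10.49 and 10.30 in Ets1KO and 11.59, 9.62 and 10.10 in WT. All Ets2KO arrays lay above every other array, and the Ets1KO and WT arrays overlapped. Means were 8.20 ± 1.69 in DKO (SD, n = 2), 13.62 ± 0.41 in Ets2KO, 11.04 ± 1.11 in Ets1KO and 10.44 ± 1.03 in WT (SD, n = 3 each). The Ets2KO mean stood 3.18 above WT (SE 0.76, 9.06-fold) and 2.58 above Ets1KO. Ets1KO differed from WT by 0.60, less than the SD of either group, and by -0.04 without Ets1KO replicate 1. The arrays labelled DKO stood below Ets2KO with a difference of -4.64 relative to array medians (SE 0.86) and -5.42 as deposited. Against Ets1KO the DKO difference was -1.99 and -2.84 on these scales without overlap, though relative to array medians the nearest arrays were at 1.10 in DKO and 1.15 in Ets1KO. Relative to array medians it was -3.19 without DKO replicate 2 and -0.80 without DKO replicate 1. Against WT it was -1.44 and -2.24, and the groups overlapped relative to array medians (-1.30 and 1.10 in DKO, 2.55, 0.51 and 0.99 in WT). The pair of DKO arrays differed from each other by more than 2 log2 units, and the difference from WT was -2.64 without DKO replicate 2 and -0.25 without DKO replicate 1.

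**Figure D3:**
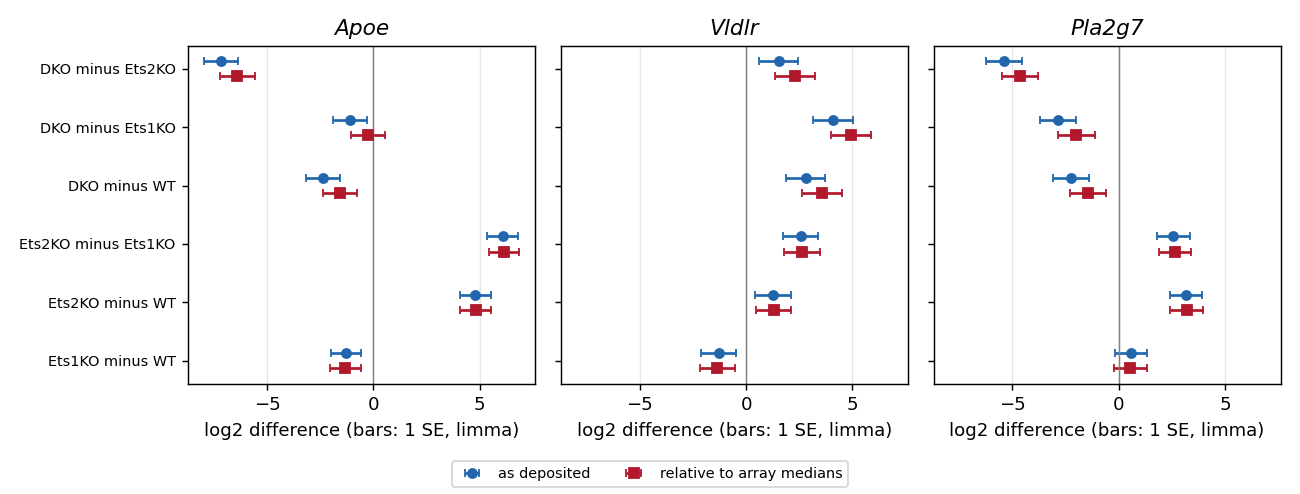
Differences in log2 expression for the brightest probe set of each member in 6 comparisons, as deposited (circles) and relative to array medians (squares), with bars of 1 SE from the limma fit over all probe sets. Both scales give the same sign for every member in every comparison, and the Apoe difference between DKO and Ets1KO is nearest to 0, at -0.25 relative to array medians.

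Across the 11 arrays and relative to array medians Apoe and Pla2g7 had a Pearson correlation of 0.812, Apoe and Vldlr 0.253 and Vldlr and Pla2g7 -0.05. These describe 11 arrays in 4 groups, and the points share their groups. The genes most like Apoe over the arrays were Htra4, a secreted serine protease (r = 0.977), the Numb ubiquitin ligase Lnx1 (0.968), the kinase Akt2 (0.965), the muscle transcription coactivator Mamstr (0.961) and the adaptor Efs (0.957), with 0.848 to 0.983 on deposited values. Those most like Pla2g7 were Tmem80 (0.932), Iqce (0.926), Bbs9 of the ciliary BBSome (0.918), the collagen receptor Mrc2 (0.916) and the heparan sulfate sulfotransferase Ndst2 (0.914), with 0.840 to 0.928 as deposited. For Vldlr the list was Pebp1 (0.958), Fbxl5 (0.944), Phip (0.943), Saxo2 (0.939) and Rab7 (0.937), but on deposited values these were 0.617, 0.244, 0.743, -0.17 and -0.43. Which genes are most like Vldlr thus depends on the subtraction of array medians.

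Markers of other cell types were read beside the members, and their part in the member differences was not tested. Of 16 macrophage and leukocyte markers 5 were measured (Csf1r, Cd14, Cd53, Laptm5 and Lyz2), and Ptprc, Adgre1 and Tyrobp were not analysed here. The mean of these 5 relative to array medians was -1.75 and -1.36 in DKO, -1.69 to -1.08 in Ets2KO, -1.38 to -1.18 in Ets1KO and -1.40 to -1.14 in WT. Its genes did not move together. Cd53 read 5.70 and 5.98 in DKO, 9.57, 9.93 and 7.55 in Ets2KO, 6.96, 7.63 and 8.39 in Ets1KO and 8.13, 9.48 and 6.70 in WT. Cd14 was between 6.95 and 7.94 in Ets2KO and between 8.10 and 10.06 in WT. Of 8 adipocyte markers 4 were measured (Adipoq, Plin4, Retn and Fabp4), with means of -0.32 and -2.20 in DKO, 0.53, 1.95 and 2.99 in Ets2KO, -2.58, -1.78 and -2.45 in Ets1KO and -1.06, -1.67 and 1.74 in WT. Ets2KO replicate 3 was highest for this list and for Apoe, whereas WT replicate 3 had 1.74 for the list and an Apoe value of 6.203, near that of WT replicate 2. Adipoq, an adipocyte hormone, read 5.10 and 3.96 in DKO, 7.15, 12.16 and 13.22 in Ets2KO, 3.70, 3.63 and 3.7999 in Ets1KO and 3.98, 4.01 and 10.89 in WT. The genes of this list did not all move alike. Adipoq, Plin4 and Fabp4 were highest among the WT arrays in WT replicate 3, whereas Retn was lowest there. Retn moved little, at 7.71, 8.27 and 7.98 in Ets2KO and 7.63, 7.58 and 7.499 in WT. Plin4 in Ets2KO replicate 2 (10.41) lay below WT replicate 1 (10.51). Pericyte markers (4 of 7 measured) had means of 0.25 to 0.63 in DKO, 0.33 to 2.34 in Ets2KO, -0.42 to 0.80 in Ets1KO and -0.68 to 0.50 in WT. In the same order, fibroblast markers (9 of 11) had 0.60 to 1.69, 0.17 to 1.29, -0.29 to 0.61 and 0.41 to 1.004. Smooth muscle markers (6 of 9) had -0.22 to 0.95, -0.64 to -0.03, -0.72 to 0.50 and -0.34 to 0.53. Genes within these lists did not move alike. Rgs5 read 10.18 to 13.93 in Ets2KO, 6.11 to 11.71 in Ets1KO and 6.97 to 7.90 in WT. Pdgfrb read 11.02 to 12.08 in Ets2KO and 11.13 to 11.91 in WT. Dpt was higher in Ets2KO (9.88 to 11.21) than in WT (7.72 to 9.33), whereas Col1a1 and Acta2 were lower.

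**Figure D4:**
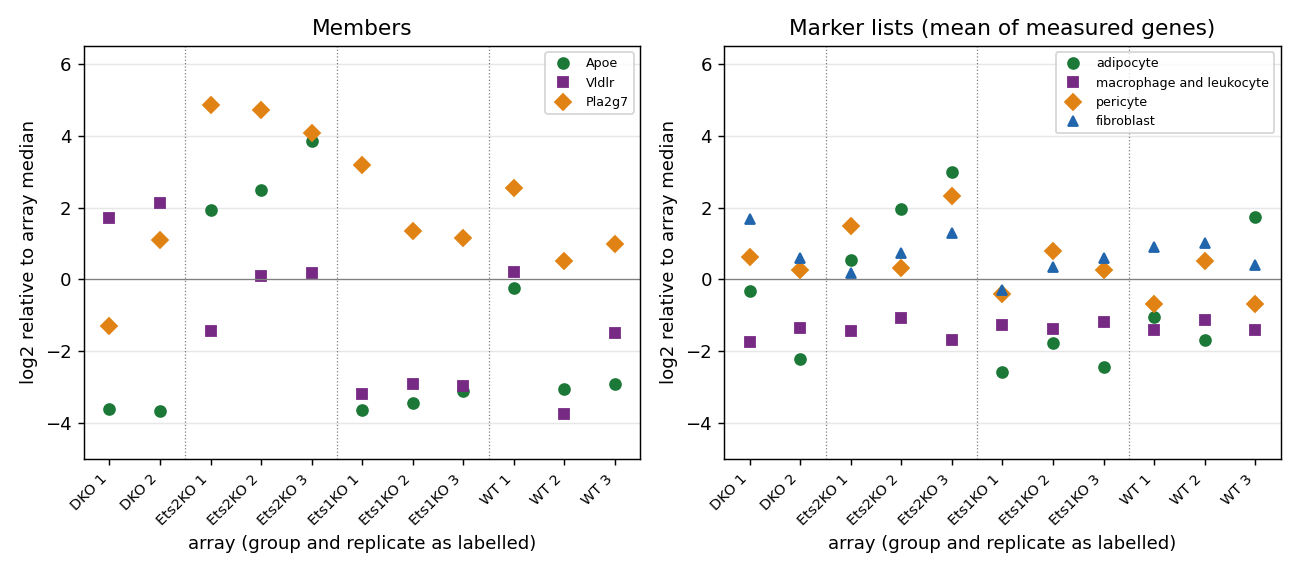
Values relative to the array median in each of the 11 arrays (horizontal axis, dotted lines between groups) for the 3 members (left) and for the means of 4 marker lists (right). The adipocyte list is positive in the 3 Ets2KO arrays and in WT replicate 3, at 0.53 to 2.99 and 1.74, while the macrophage and leukocyte list stays between -1.75 and -1.08 in all 11.

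Xist was low in all 3 Ets2KO arrays and in WT replicate 1, and its part in the member differences was not tested. Against WT replicate 1, the WT array with low Xist like Ets2KO, the Ets2KO difference was 3.02 for Apoe, -0.57 for Vldlr and 2.03 for Pla2g7, as given by the fit with high or low Xist as a covariate. All 3 Ets2KO arrays stood above WT replicate 1 for Apoe and Pla2g7. At the brightest Vldlr probe set none did (7.64, 9.16 and 9.25 in Ets2KO, 9.252 in WT replicate 1), and none did at 1417900_a_at. At 1435893_at Ets2KO replicates 2 and 3 did (8.65 and 8.17, against 8.11 in WT replicate 1). At 1438258_at Ets2KO replicate 2 did (7.91, against 7.75 in WT replicate 1).

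Other genes of lipoprotein handling were read from a list of 96 in 6 roles, of which 58 were measured. Against WT, Ets1KO and Ets2KO called none of the 58 by limma, with 7 (12.1%) and 15 (25.9%) at unadjusted p below 0.05, where 8.62% and 19% of all genes were. Over all genes 0.00908% were called in Ets1KO and 0.3% in Ets2KO (0.154% higher, 0.145% lower), and 0.336% in Ets2KO relative to array medians (0.182% higher). The list medians were -0.09 in Ets1KO and 0.05 in Ets2KO, beside 0.01 and -0.02 over all genes. Between Ets2KO and Ets1KO 2 genes were called, both lower, of 58 (3.45%), where 2.94% of all genes were called (1.43% higher, 1.52% lower), or 3.5% relative to array medians (2.2% higher, 1.31% lower). They were the cytosolic phospholipase A2 Pla2g4a, which frees arachidonic acid from membranes (difference -1.74, SE 0.29, limma adjusted p = 0.0268), and the lysophospholipid acyltransferase Lpcat4 (difference -0.92, SE 0.16, limma adjusted p = 0.0286). Pla2g4a read 8.26, 8.78 and 8.71 in Ets2KO and 10.44, 10.09 and 10.44 in Ets1KO, without overlap. Leaving out an array gave 0 to 6 called genes in this comparison, and it gave none without Ets2KO replicate 1 or 2 or without Ets1KO replicate 2 or 3, 1 without Ets2KO replicate 3 or Ets1KO replicate 1, and 6 without WT replicate 3.

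In the arrays labelled DKO 12 of 58 list genes (20.7%) were called against WT relative to array medians, 6 higher and 6 lower, where 30.3% of all genes were called (19.8% higher, 10.6% lower). The share of the list was below that of all genes. As deposited 2 were called higher and 22 lower, where 45.9% of all genes were called, 2.32% higher and 43.6% lower, so the balance of directions depends on the scale. Without WT replicate 1 or without WT replicate 2 the count was 7. The list median was 0.07, beside 0.18 over all genes.

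By role against WT, 1 of 6 apolipoprotein genes rose, Apoa5, a regulator of plasma triglycerides made in liver (1.13, SE 0.12, limma adjusted p = 5.24e-04), whose deposited values moved little (7.22 and 7.36 in DKO, 7.005, 6.90 and 6.95 in WT). Of 11 genes of the LDL receptor family and its adaptors the Wnt co-receptor Lrp6 rose (1.33, SE 0.41, limma adjusted p = 0.0372), with its other probe set at -0.18, and the call was lost without WT replicate 1 or 2, Ets1KO replicate 2 or 3, or either DKO array (limma adjusted p up to 0.133). Of 8 scavenger and HDL receptor genes the HDL receptor Scarb1 fell (-1.62, SE 0.25, limma adjusted p = 0.00228). Scarb1 read 8.03 and 7.98 in DKO and 10.42, 10.70 and 10.15 in WT, and its other probe sets gave -0.69 and -0.87. Of 7 lipase and transfer genes the phospholipid transfer protein Pltp rose (1.65, limma adjusted p = 0.0290). Of 12 cholesterol efflux genes and regulators, the lysosomal cholesterol carrier Npc2 rose (1.24), while the nuclear receptor Rxra (-1.02) and the sterol transporter Abcg4 (-0.79) fell, at limma adjusted p = 0.0133, 0.0340 and 0.00354. The other Rxra probe set gave -0.63. The calls of Rxra, Pltp and Npc2 did not hold in every fit that left out 1 array, and Rxra lost its call more often than Lrp6. Of 14 genes of platelet-activating factor and phospholipases A2, 2 rose and 3 fell, led by Pla2g4a (2.24, SE 0.32, limma adjusted p = 0.00162), the membrane acyltransferase Lpcat3 (-1.94, SE 0.32, limma adjusted p = 0.00320) and Lpcat4 (-0.84, SE 0.17, limma adjusted p = 0.00729). Pla2g4a read 11.32 and 10.67 in DKO and 9.22, 10.16 and 9.26 in WT, and it rose on both scales. As deposited the rises of Lrp6, Pltp and Npc2 did not pass (0.54, 0.85 and 0.45 at limma adjusted p = 0.319, 0.175 and 0.223).

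**Figure D5:**
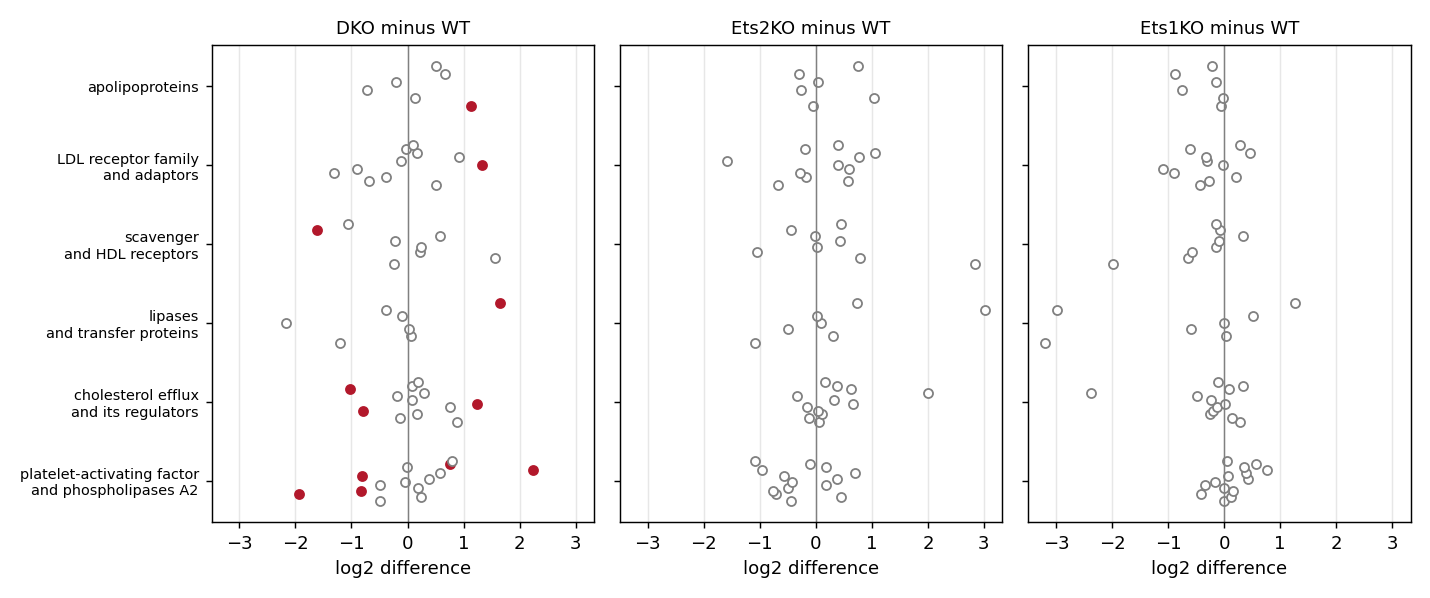
Log2 differences of the 58 measured lipoprotein genes by role, for DKO (relative to array medians), Ets2KO and Ets1KO (as deposited) against WT; each point is a gene and filled points passed limma at adjusted p below 0.05. The 12 filled points are all in the comparison of DKO with WT, 6 on each side of 0.

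Against Ets1KO the arrays labelled DKO called 14 of 58 list genes (24.1%), 8 higher and 6 lower, where 31.5% of all genes were called (21.6% higher, 9.94% lower). As deposited the split was 1 higher and 20 lower, where 44.5% of all genes were called (1.72% higher, 42.8% lower). Apoa5 (1.24), Lrp6 (1.40, other probe set -0.02), the receptor chaperone Lrpap1 (1.30), the scavenger receptors Colec12 (2.25) and Msr1 (0.43), the lipoprotein lipase inhibitor Angptl4 (2.03), Npc2 (1.28) and Pla2g4a (1.51) rose. Scarb1 (-1.51), Abcg4 (-0.54), Rxra (-1.06), Lpcat3 (-1.48) and Lpcat4 (-0.94) fell, with limma adjusted p between 0.00315 and 0.0284 for these 5. The other probe sets of Scarb1 (-0.48 and -0.63) and Rxra (-0.74) fell less. As deposited, of these 8 rises only that of Apoa5 passed, and Msr1 had the opposite sign (-0.41, limma adjusted p = 0.0240). Without Ets1KO replicate 2, Ets1KO replicate 3 or DKO replicate 1 the count was 6, 8 or 5.

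Against Ets2KO 14 of 58 were called (24.1%), 6 higher and 8 lower, where 32.1% of all genes were called (20% higher, 12.1% lower). As deposited the split was 3 higher and 26 lower, where 46.3% of all genes were called (3% higher, 43.3% lower). Apoa5 rose by 1.16, the reelin and Apoe receptor Lrp8 by 1.45 (other probe set 0.10), the paraoxonase Pon3 by 1.86 and Pla2g4a by 3.18 (limma adjusted p = 3.95e-04, 0.0367, 0.00577 and 3.17e-04). The endocytic receptor Lrp1 (-1.28), the ligase Mylip, which marks LDL receptors for breakdown (-0.91), Scarb1 (-1.21), Scarb2 (-1.54), Abcg4 (-0.85), Rxra (-1.66) and Lpcat3 (-1.26) fell. The other probe sets of Lrp1 (-0.25), Scarb1 (-0.18 and -0.30), Scarb2 (-0.51) and Rxra (-0.98) fell less. Lrp8 read 8.71 and 7.84 in DKO and 8.15, 7.87 and 6.78 in Ets2KO, which overlap as deposited, where the difference of 0.68 did not pass (limma adjusted p = 0.252). The Lrp8 call was also lost in 7 of 11 fits that left out 1 array (WT replicate 2, any Ets1KO array, Ets2KO replicate 2 or 3, or DKO replicate 1), at limma adjusted p up to 0.216. Mylip read 8.91 and 8.299 in DKO and 10.06, 10.29 and 10.52 in Ets2KO, without overlap. Without DKO replicate 2 the count was 8.

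The difference of DKO from Ets1KO less that of Ets2KO from WT passed the interaction term of limma relative to array medians for 6 of the 58 list genes, 4 higher and 2 lower, where 16.3% of all genes passed (9.84% higher, 6.45% lower). For the members the same difference, not tested, was -5.07 for Apoe, 3.65 for Vldlr and -5.19 for Pla2g7 relative to array medians.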

How the data were processed

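Values are log2 expression per Affymetrix probe set, deposited by the authors. They were summarised with RMA per the submitters' processing notes, and no version is given there. Groups follow the titles and genotypes, since the short descriptions of the Ets1KO and Ets2KO samples call them wild type. Of 20523 probe sets 18824 carry 1 symbol in the platform annotation, several symbols are given for 549 and none for 1150. The brightest probe set on average stood for each of 11015 genes. The replicate count of 2 or 3 arrays a group limits the precision.

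Linear models with 4 group means were fitted to 11 arrays with limma 3.58.1 in R 4.3.3 (lmFit, eBayes, 7 residual degrees of freedom), with p-values adjusted by Benjamini and Hochberg over all genes and a gene called at adjusted p below 0.05. Exact permutation tests were two-sided. The fit was tested on simulated data. Python 3.11.15 and matplotlib 3.10.9 drew the figures.

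The members and gene lists were chosen with earlier results of these data known. Named list genes are up to 3 called per role and comparison with the largest differences; the 5 genes with the highest correlation to each member are named too, and single other genes are marked where they appear. Alternatives were scaling, quantile normalization, probe set choice, a filter on dim genes, the third DKO column, 2-group fits, leaving out arrays, the replicate number as a block and Xist as a covariate. Same-numbered arrays of different groups were compared, and their deviations correlated by -0.32 to 0.10 over 15 pairs.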

Additional observations from a re-analysis of the deposited data

Results flagged for a closer look

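Among the members, 3 differences between backgrounds had opposite directions in every array, measured against the mean of the group each was compared with, and none of these differences was tested. Apoe and Pla2g7 stood higher in Ets2KO than in WT but lower in DKO than in Ets1KO, and the second difference less the first was -5.07 for Apoe and -5.19 for Pla2g7 relative to array medians (-5.89 and -6.02 as deposited). Apoe differed little between DKO and Ets1KO (-0.25, with groups that overlapped relative to array medians), so its value rests on Ets2KO. Vldlr stood lower in Ets1KO than in WT but higher in DKO than in Ets2KO, a difference of 3.65 (2.82 as deposited). Its Ets1KO and WT arrays overlapped, however, and their difference was -0.37 without WT replicate 1. The Apoe and Vldlr values include the arrays of the comparison that chose each gene.

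Among the 58 list genes, the difference of DKO from Ets1KO and that of Ets2KO from WT were unequal for 6 by the interaction term of limma relative to array medians (6 of 58, where 16.3% of all genes passed). The first less the second was positive for Apoa5 (1.26, adjusted p = 0.00233), Angptl4 (3.10, adjusted p = 0.0233), Pon3 (1.85, adjusted p = 0.0340) and Pla2g4a (2.46, adjusted p = 0.00744). It was negative for Mylip (-1.32, adjusted p = 0.0369) and Rxra (-1.70, adjusted p = 0.0256). As deposited the values, with limma adjusted p, were 0.44 for Apoa5 (0.0571), 2.28 for Angptl4 (0.0427), 1.03 for Pon3 (0.14), 1.64 for Pla2g4a (0.0196), -2.14 for Mylip (0.00213) and -2.52 for Rxra (0.00216). Outliers within a group were not looked for, since no group has 4 arrays.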

How the results depend on the processing

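Directions of the members held under the scalings, probe set choices and 2-group fits, but some sizes moved, and the cause was not tested. On the other scaling Vldlr gave 4.10 for DKO against Ets1KO and 1.53 against Ets2KO, and Apoe -7.17 against Ets2KO. With the mean of the probe sets Vldlr gave 4.27 for DKO against Ets1KO. With Xist as a covariate, Apoe, Vldlr and Pla2g7 gave 3.02, -0.57 and 2.03 for Ets2KO against WT, 3.40, -0.19 (adjusted p = 0.986 by limma) and 0.85 against Ets1KO, and -3.65, 5.13 and -2.84 for DKO against Ets2KO. Only WT separates Xist from group there. With only the arrays of Ets2KO and Ets1KO, Vldlr passed (2.57, limma adjusted p = 0.0390).

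List counts for Ets2KO against WT were 0 and, with 12 columns, 2. For Ets2KO against Ets1KO (2) they were 4 on the other scaling, with quantile normalization and with 2 groups, 1 among genes above the median gene, 7 with 12 columns and 0 with Xist. For DKO against WT (12) they were 24 on the other scaling, 7 above the median gene and 7 with Xist. Against Ets1KO (14) they were 9 with quantile normalization and 7 above the median gene. Against Ets2KO (14) they were 29 on the other scaling, 9 above the median gene and 2 with Xist. A filter leaves 26 list genes and neither Apoe nor Vldlr. Msr1 turned to -0.41 as deposited in DKO against Ets1KO.

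Leaving out 1 array at a time gave counts of 0 to 6 for Ets2KO against Ets1KO, 7 to 14, 5 to 15 and 8 to 15 for DKO against WT, Ets1KO and Ets2KO, and 2.28 to 3.09 for Vldlr in Ets2KO against Ets1KO (limma adjusted p = 0.0474 to 0.267). A lone DKO array is assumed to vary like the other groups. Apoe in DKO against Ets1KO ranged from -0.37 to -0.11 (limma adjusted p = 0.724 to 0.947). With the replicate number as a block, which the arrays do not bear out as a pairing (only 1 of 15 pairs correlated above 0.1), list counts were 2 for Ets2KO against Ets1KO, 1 higher and 1 lower with Pla2g4a lost (limma adjusted p = 0.0595), and 9, 12 and 12 for DKO, Apoe in DKO against Ets1KO gave -0.16 (limma adjusted p = 0.911) and Vldlr in Ets2KO against Ets1KO 2.57 (limma adjusted p = 0.183). Over all alternative settings, 578 of the named list genes' values kept their call and direction, 125 missed the threshold with their direction kept and 1 reversed. Correlations of genes with members were recomputed in settings chosen after seeing the data.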

Other observations

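Some genes of fatty acid uptake and storage, chosen after their values were seen, varied widely among the WT arrays, and none passed limma in Ets2KO against WT. Lipoprotein lipase (Lpl), which frees fatty acids from lipoproteins, read 10.53 and 5.10 in DKO, 9.87, 12.50 and 13.67 in Ets2KO, 5.92, 6.31 and 5.79 in Ets1KO and 7.10, 7.44 and 12.44 in WT. The fatty acid receptor Cd36 read 6.65 and 4.69 in DKO, 8.07, 9.26 and 11.30 in Ets2KO, 4.55, 4.91 and 4.70 in Ets1KO and 5.43, 4.72 and 9.95 in WT. The adipogenic receptor Pparg read 9.69 and 8.96 in DKO, 11.61, 11.64 and 12.22 in Ets2KO, 8.65, 6.48 and 7.23 in Ets1KO and 10.32, 7.34 and 11.80 in WT. For all 3 genes every Ets2KO array lay above every Ets1KO array, and WT replicate 3, the WT array with high Adipoq, was the highest WT array. The share of all genes whose Ets2KO and Ets1KO arrays did not overlap was not counted. By limma 22.5% of all genes had unadjusted p below 0.05 in that comparison. Between Ets2KO and Ets1KO the differences were 6.01 for Lpl (limma adjusted p = 0.0964), 4.83 for Cd36 (limma adjusted p = 0.0845) and 4.37 for Pparg (limma adjusted p = 0.0512). Apoe read 6.203 in WT replicate 3, unlike these genes, and Vldlr read 7.62 there.

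Angptl4, the secreted inhibitor of lipoprotein lipase and also chosen after its values were seen in this comparison, read 10.60 and 9.62 in DKO, 10.67, 10.44 and 11.94 in Ets2KO, 9.33, 8.56 and 8.88 in Ets1KO and 12.06, 11.39 and 12.87 in WT. It was lower in every Ets1KO array than in every WT array (difference -3.19, SE 0.49), which did not pass over all genes (limma adjusted p = 0.133).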
